A study of Mus musculus with 24 samples.

Results

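Genes of oligodendrocytes and myelin were followed in the hypothalamus of hypertensive BPH/2J mice and of normotensive BPN/3J mice, both inbred. A list of 32 genes defined the set, and 31 of them were measured among 19937 genes with a single-symbol probe set. Enpp2 was not analysed here. The members and the lists of other genes used below were chosen with earlier results of these data known, so their counts are descriptive. The 31 genes, each read by 1 probe set, comprised 5 precursor genes, 5 transcription factors, 14 myelin and myelin-membrane proteins, 4 enzymes and 3 further oligodendrocyte genes. The last 3 classes, 21 genes, are called the mature genes. The precursor class includes Enpp6, a gene of newly formed oligodendrocytes rather than of precursor cells.

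The whole hypothalamus was taken from male mice in 4 groups of 6, namely BPH/2J at 26 weeks, BPN/3J at 26 weeks, BPH/2J at 6 weeks and BPN/3J at 6 weeks of age. No pooling was done, so each of the 24 arrays stands for 1 mouse, and tissue was collected when the daily blood pressure cycle was highest. The labels name standard housing and no other treatment, and the groups differ by strain background and age rather than by a single allele. The platform was the Affymetrix Mouse Gene 1.0 ST array, and all levels below are RMA values on the log2 scale, in which 1 unit is a doubling.

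Oligodendrocytes wrap axons of the central nervous system in myelin, a stack of membrane rich in galactolipids and cholesterol that speeds conduction. They arise from precursor cells that carry the receptor Pdgfra and the proteoglycan Cspg4, and Olig and Sox family factors direct their maturation. Newly formed cells express Enpp6, and mature cells express the proteins of the sheath. In the hypothalamus, myelin lies mostly in the fibre tracts that cross or border it. Because RNA came from whole tissue, fewer cells of a type and less RNA per cell cannot be told apart.

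The labelled tissue and the cell type were both represented. Group means of Pmch, the precursor of melanin-concentrating hormone, lay between 11.92 and 12.62. The lowest value of any of the 31 genes on any array was 5.83 (Bmp4), above the array medians of the 11799 unnamed probe sets, which ran between 4.60 and 5.25. Pmp2, a protein of peripheral myelin, had group means of 3.84 to 4.02, below those medians. Egr2 (5.49 to 5.69) and Ncmap (5.30 to 5.35), 2 further genes of the Schwann cell list, had group means above them. Whether any of this signal came from Schwann cells was not tested.

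Array medians ran between 5.89 and 6.09, and the number of arrays limits the precision. The median standard error of a strain difference at 6 weeks was 0.09 over all genes. Replicates 5 and 6 of both 26-week groups stood apart. On the leading component of the deviations from group means at that age, which held 41.9% of the variance, these 4 arrays scored 20.95 to 28.4 and the other 8 scored -21.9 to 0.14. The labels name no batch. For each comparison that uses 26-week mice, the count of called genes is given with and without these 4 arrays, as are the set medians that differed. The 6-week strain comparison shares its estimate of the spread with the 26-week arrays, so its count is given in both ways too.

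Reference promoter windows were matched for 24 of the measured genes, in 30 windows of 300 bases (RefSeq, GRCm38.p6, the C57BL/6J reference rather than either strain). Of these, 5 are shown because their genes carry the differences described below. Opalin lies among the genes furthest lower in young BPH/2J mice, Cldn11 and Mal fell with age in both strains, and Ermn and Aspa rose with age in BPH/2J mice. The windows are Opalin at chr19:41077064-41077363 on the minus strand, Cldn11 at chr3:31149670-31149969 on the plus strand, and Mal at chr2:127656646-127656945, Ermn at chr2:58052815-58053114 and Aspa at chr11:73324588-73324887 on the minus strand. Each reads 5′ to 3′ in the direction of the gene, and capitals mark the motifs spelled out after the sequences.
Opalin: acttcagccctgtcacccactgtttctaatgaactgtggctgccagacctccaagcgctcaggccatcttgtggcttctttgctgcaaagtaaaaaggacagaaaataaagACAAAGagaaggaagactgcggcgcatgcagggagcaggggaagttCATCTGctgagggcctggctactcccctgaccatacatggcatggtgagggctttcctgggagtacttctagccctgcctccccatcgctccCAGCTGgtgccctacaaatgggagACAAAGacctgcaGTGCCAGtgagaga
Cldn11: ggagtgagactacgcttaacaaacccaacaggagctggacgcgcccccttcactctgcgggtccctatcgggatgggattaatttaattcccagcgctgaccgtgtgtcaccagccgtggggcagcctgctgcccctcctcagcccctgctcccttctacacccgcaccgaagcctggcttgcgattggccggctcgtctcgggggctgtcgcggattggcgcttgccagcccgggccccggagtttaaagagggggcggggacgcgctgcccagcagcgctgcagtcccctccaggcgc
Mal: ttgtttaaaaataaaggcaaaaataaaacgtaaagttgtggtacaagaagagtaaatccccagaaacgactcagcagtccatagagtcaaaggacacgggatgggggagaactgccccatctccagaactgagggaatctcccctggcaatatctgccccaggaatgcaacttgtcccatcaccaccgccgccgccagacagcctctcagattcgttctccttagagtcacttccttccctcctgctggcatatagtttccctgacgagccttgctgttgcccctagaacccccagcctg
Ermn: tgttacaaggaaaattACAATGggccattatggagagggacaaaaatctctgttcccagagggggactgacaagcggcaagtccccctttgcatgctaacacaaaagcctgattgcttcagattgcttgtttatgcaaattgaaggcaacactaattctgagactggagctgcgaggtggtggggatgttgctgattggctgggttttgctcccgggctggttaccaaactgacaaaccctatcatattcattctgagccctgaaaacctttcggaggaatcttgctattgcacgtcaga
Aspa: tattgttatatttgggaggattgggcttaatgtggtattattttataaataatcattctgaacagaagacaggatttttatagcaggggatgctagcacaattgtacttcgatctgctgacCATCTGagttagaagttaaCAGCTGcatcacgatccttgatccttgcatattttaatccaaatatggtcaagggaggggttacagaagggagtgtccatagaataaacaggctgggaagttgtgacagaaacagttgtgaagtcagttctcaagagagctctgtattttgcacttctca

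The motifs searched on both strands were ACAAAG and ACAATG, bound by Sox factors, the E-box forms CAGCTG and CAGATG, and CTGGCAC, bound by Myrf, a regulator of myelin genes. CAGCTG reads the same on both strands. The Opalin window held 5 matches, Aspa 2 and Ermn 1, and no letters of these motifs were found in the Cldn11 and Mal windows. ACAAAG was present in 30% of the 30 windows and in 18.7% of all 32851 promoter windows of the same length, and CAGATG in 26.7% against 17.2%. ACAATG was present in 13.3% against 12.6%, CTGGCAC in 13.3% against 5.01%, and CAGCTG in 6.67% against 16.3%. Some windows of a gene overlap, and those of Mag share matches. By gene, ACAAAG was found in 7 of 24 and CTGGCAC in 3 of 24. The member windows were also richer in G and C, with a median of 59.5% against 52.7%. These matches are letters in a window and describe no binding.

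The first comparison asked how the strains differ in young mice. At 6 weeks 10 of the 31 genes were lower in BPH/2J than in BPN/3J mice and 0 were higher, by limma's moderated test with Benjamini-Hochberg adjustment over all genes at a threshold of 0.05. Of all 19937 genes, 7.42% were called, 4.42% lower and 2.99% higher. The 10 genes were Enpp6 among the precursor genes, Mag, Cnp, Mal, Opalin and Gjb1 among the myelin proteins, the enzymes Fa2h, Aspa and Qdpr, and Trf. The median difference (BPH/2J minus BPN/3J) was -0.33 over the 31 genes and -0.41 over the 21 mature genes, where the median of all genes was 0.01. Every mature gene had a negative difference, and 27 of the 31 genes did.

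Among the myelin proteins, Opalin, a transmembrane protein of the oligodendrocyte surface, ran from 6.85 to 7.90 with a median of 7.49 in BPH/2J, against 7.55 to 8.40 with a median of 8.21 in BPN/3J. Only BPN/3J replicate 2 lay below the highest BPH/2J array. The difference was -0.75 ± 0.18 (SE, n = 6 per group, adjusted p = 0.0112). Gjb1, a connexin that forms gap junctions between layers of myelin, had 6.85 to 7.37 (median 7.04) in BPH/2J, against 7.22 to 8.03 (median 7.83) in BPN/3J. Here too BPN/3J replicate 2 was the sole BPN/3J array within the BPH/2J range. The difference was -0.70 ± 0.16 (adjusted p = 0.0047).

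Mag, the myelin-associated glycoprotein that faces the axon, lay between 9.65 and 10.70 (median 10.20) in BPH/2J, against 10.33 and 10.99 (median 10.83) in BPN/3J. BPN/3J replicate 2 fell below 3 of the BPH/2J arrays, while the other 5 BPN/3J arrays lay above all of them. The difference of Mag was -0.57 ± 0.15 (adjusted p = 0.0202). Cnp, a phosphodiesterase of the uncompacted myelin, spanned 11.33 to 12.01 (median 11.54) in BPH/2J, against 11.80 to 12.20 (median 12.04) in BPN/3J. Mal, a raft proteolipid that sorts membrane to the sheath, spanned 10.08 to 10.88 (median 10.37) in BPH/2J, against 10.53 to 11.15 (median 10.91) in BPN/3J. BPH/2J replicates 1 and 2 reached into the BPN/3J range in Cnp, and replicates 1, 2 and 6 in Mal. Their differences were -0.41 ± 0.13 (adjusted p = 0.0410) and -0.43 ± 0.12 (adjusted p = 0.0258). Mog, the glycoprotein of the outer sheath, at -0.47 ± 0.16, the tight junction protein Cldn11 at -0.46 ± 0.17 and the cytoskeletal protein Ermn at -0.55 ± 0.22 did not pass (adjusted p = 0.0848, 0.108 and 0.151). Mbp, the basic protein that compacts the membrane, had -0.16 ± 0.08 and did not pass either.

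All 4 enzyme genes had negative differences, and 3 of them passed. Fa2h, which hydroxylates the fatty acids of myelin galactolipids, had 7.15 to 8.09 (median 7.55) in BPH/2J, against 7.85 to 8.64 (median 8.36) in BPN/3J, a difference of -0.74 ± 0.15 (adjusted p = 0.0024). Aspa, the enzyme that splits N-acetylaspartate into acetate for lipid synthesis, had 7.75 to 8.65 (median 8.06) in BPH/2J, against 8.18 to 9.08 (median 8.86) in BPN/3J, a difference of -0.63 ± 0.17 (adjusted p = 0.0200). In both, BPN/3J replicate 2 was again the only BPN/3J array below the highest BPH/2J array. Qdpr, which recycles the tetrahydrobiopterin cofactor, had 11.22 to 11.59 (median 11.47) in BPH/2J, against 11.60 to 11.88 (median 11.82) in BPN/3J. It was the only gene of the set whose 6 BPH/2J arrays all lay below the 6 BPN/3J arrays. Of all genes, 2.78% were separated in this way. The difference of Qdpr was -0.37 ± 0.09 (adjusted p = 0.0124). Ugt8a, which makes galactosylceramide, had -0.41 ± 0.18 and did not pass.

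Trf, transferrin, an iron carrier made by oligodendrocytes, had the largest difference of the set. It ran from 10.62 to 11.47 (median 10.98) in BPH/2J, against 11.44 to 11.99 (median 11.85) in BPN/3J. BPH/2J replicate 2 and BPN/3J replicate 2 were the only arrays of the groups that crossed. The difference of Trf was -0.77 ± 0.13 (adjusted p = 0.0003). Gpr37, a receptor of maturing oligodendrocytes, at -0.35 ± 0.14 and Ndrg1 at -0.16 ± 0.09 did not pass.

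**Figure D1:**
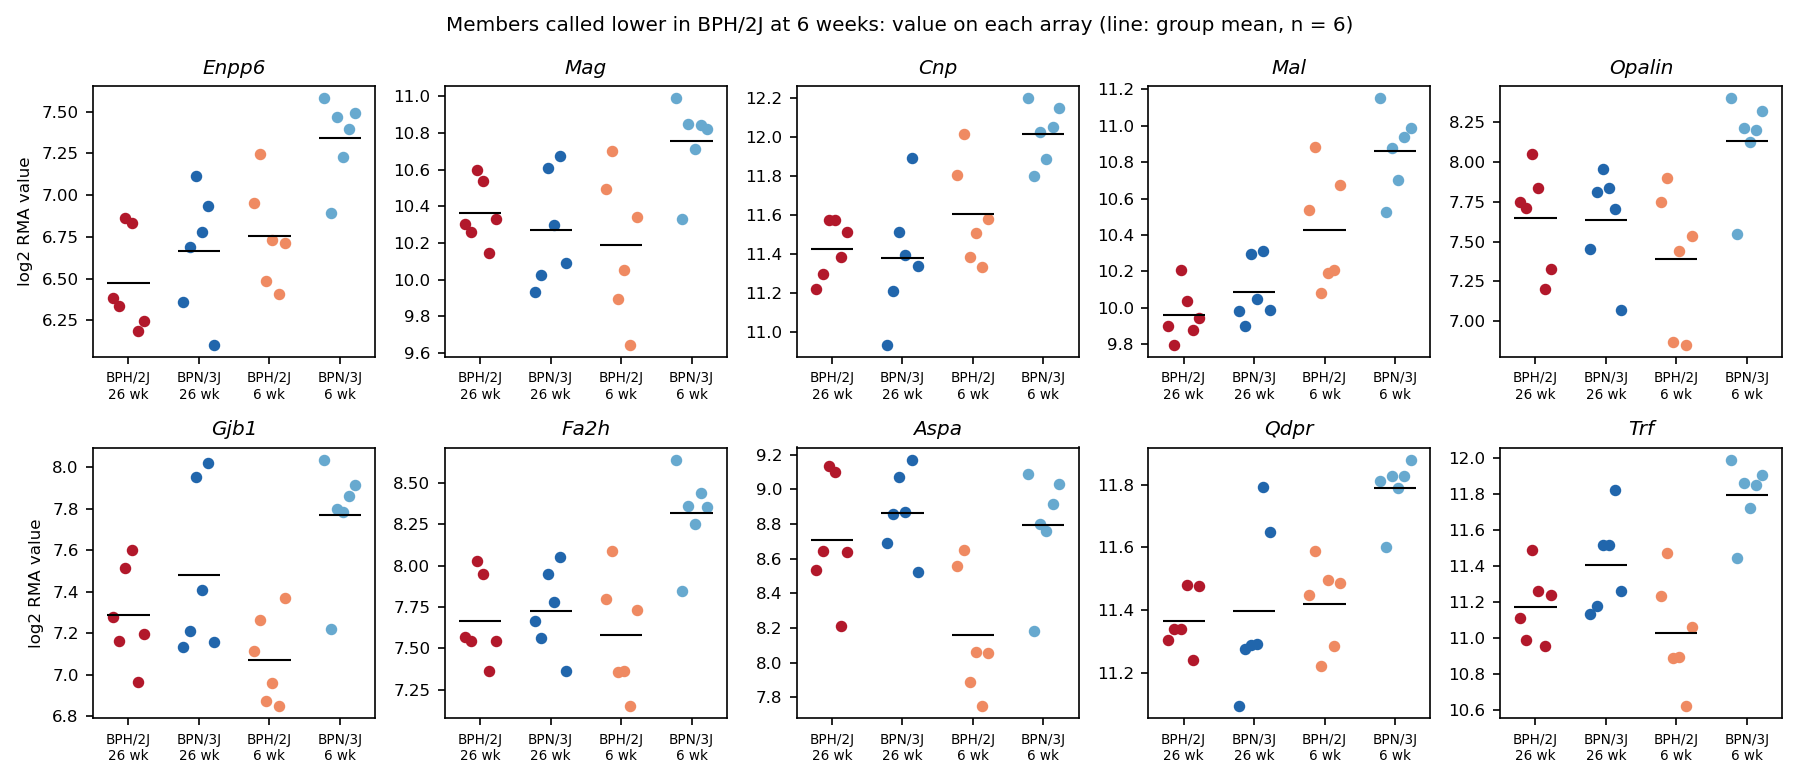
Log2 RMA value (vertical axis) of the 10 genes called lower in BPH/2J at 6 weeks, 1 point per array and a line at each group mean (n = 6), with the strains and ages along the horizontal axis. In most panels 6-week BPN/3J replicate 2 is the low point of its group, and the 26-week strains lie close together.

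Of the 5 precursor genes and 5 transcription factors, 1 was called between the young strains. This was Enpp6, placed in the precursor class here but a choline phosphodiesterase of newly formed oligodendrocytes. It had 6.41 to 7.25 (median 6.72) in BPH/2J, against 6.89 to 7.58 (median 7.43) in BPN/3J. BPH/2J replicates 1 and 2 reached into the BPN/3J range. The difference was -0.59 ± 0.16 (adjusted p = 0.0262). The other 4 precursor genes were not called, with Pdgfra at 0.14 ± 0.09, Cspg4 at 0.01 ± 0.07, the matrix protein Tnr at 0.06 ± 0.08 and Bmp4, a secreted signal that holds back oligodendrocyte maturation, at -0.16 ± 0.11. None of the 5 transcription factors passed in the fit of all 24 arrays. Olig1 stood at -0.21 ± 0.07 (adjusted p = 0.0868), Olig2 at -0.14 ± 0.11, Sox10 at -0.17 ± 0.10 and Nkx2-2 at -0.04 ± 0.10. Nkx6-2, a homeodomain factor, had the one positive value among them at 0.26 ± 0.09 (adjusted p = 0.0684).

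Single arrays moved across most mature genes together. Within 6-week BPH/2J mice, replicate 2 gave the highest value in 18 of the 21 mature genes and replicate 5 the lowest in 16. Within 6-week BPN/3J mice, replicate 1 was highest in 15 and replicate 2 lowest in 19. The mean of the 21 genes was 9.69 ± 0.27 (SD) in BPH/2J, with values between 9.38 and 10.09, against 10.13 ± 0.20 in BPN/3J, with values between 9.77 and 10.32. The BPH/2J mice of replicates 1 and 2 lay within the BPN/3J range, and the BPN/3J mice of replicates 2 and 4 within the BPH/2J range. Leaving out BPH/2J replicate 2 gave 15 called genes, 14 lower and 1 higher, where 9.84% of all genes were called. Leaving out BPN/3J replicate 2 gave 11, all lower, where 6.7% of all genes were called.

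Over fits that left out each of the 24 arrays in turn, 5 to 15 of the 31 genes were called, where 1034 to 1961 of all 19937 genes were. Opalin, Gjb1, Fa2h, Qdpr and Trf passed in every one of these fits. Without BPH/2J replicate 3 or 5 only these 5 remained, and 6 were called lower without replicate 4 of BPH/2J, as also without replicate 6 of BPN/3J. Without BPN/3J replicate 1, 5 were called lower and 1 higher. In the fits with these lower counts 5.21% to 6.13% of all genes were called. The calls of Enpp6, Mag, Cnp, Mal and Aspa were lost without replicate 3 or 5 of BPH/2J and without replicate 1 of BPN/3J, and those of all of these but Aspa without BPH/2J replicate 4. Enpp6, Cnp, Mal and Aspa were lost without BPN/3J replicate 6, Enpp6, Cnp and Mal without BPN/3J replicate 5, Enpp6 and Cnp without BPN/3J replicate 3, and Cnp without BPH/2J replicate 6. Across these fits their differences nearest to 0 were -0.52, -0.46, -0.36, -0.37 and -0.55, in the order Enpp6, Mag, Cnp, Mal and Aspa, and their highest adjusted p were 0.0777, 0.0686, 0.114, 0.0863 and 0.0644. Cnp also did not pass after cyclic loess scaling or with replicate number as a block, and Mal did not when only the 12 arrays of the 6-week groups were fitted. Without the 4 26-week arrays that stood apart 15 genes were called, 14 lower and 1 higher, where 12.3% of all genes were called. With a term for these arrays 13 were called lower, where 11% of all genes were called. Cldn11, Ermn and Cntn2 passed in both of these fits, and Olig1 and Nkx6-2 passed without the 4 arrays only.

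Markers of the thalamus, which borders the hypothalamus, differed between the same groups. Of 18 measured thalamus markers 16 were lower in 6-week BPH/2J mice and 0 higher, with a median of -0.93. This list too was chosen with earlier results of these data known, so its count is no independent evidence. The smallest p-values belonged to Tnnt1 (-1.39 ± 0.14), Rora (-1.13 ± 0.17) and Plekhg1 (-1.62 ± 0.26). Their mean per array ran from 7.86 to 9.40 (median 8.52) in BPH/2J, against 9.33 to 9.71 (median 9.43) in BPN/3J. BPH/2J replicate 2 was the array at 9.40, within the BPN/3J range, and the other 5 were at or below 8.78. The BPH/2J array with the lowest thalamus mean, replicate 1, had a mature-gene mean of 9.86, above all of its group except replicate 2. With the thalamus mean as a covariate, 1 of the 31 genes was called lower (Trf, -0.85 ± 0.20, adjusted p = 0.0371), as were 0.818% of all genes in either direction. In that fit the median difference of the 31 genes was -0.34 and their median standard error 0.18, where without the covariate these were -0.33 and 0.12. At 6 weeks the thalamus mean itself differed between the strains, so the covariate fit cannot separate it from strain. The part of these markers in the difference was not tested.

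**Figure D2:**
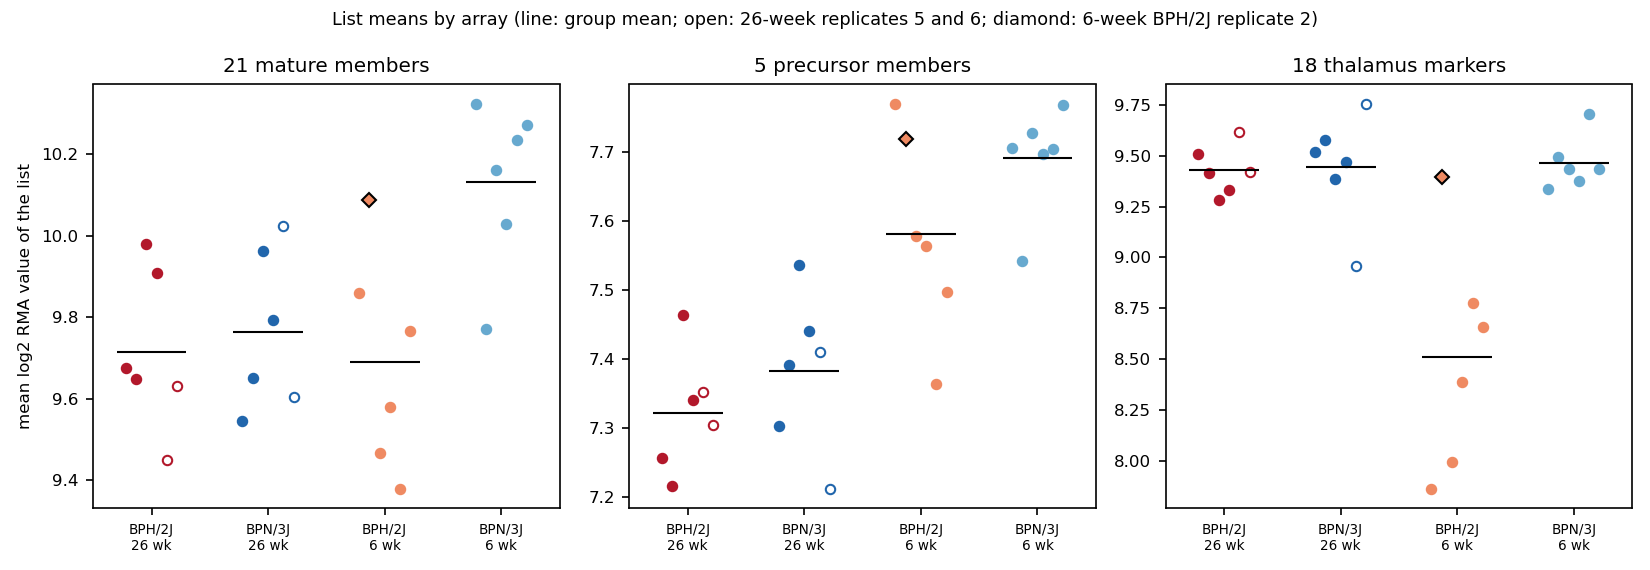
Mean log2 RMA value per array (vertical axis) of the 21 mature genes, the 5 precursor genes and the 18 thalamus markers in the 4 groups, with a line at the group mean. Open circles mark 26-week replicates 5 and 6 and the diamond marks 6-week BPH/2J replicate 2, which lies at 10.09 in the mature genes and 9.40 in the thalamus markers.

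Other genes of the lineage and its surroundings were counted in the same fit, where 4.42% of all genes were lower and 2.99% higher. Of 52 further oligodendrocyte genes 17 were lower in 6-week BPH/2J mice and 1 higher, with a median of -0.26. The lowest p among them belonged to Ninj2, an adhesion protein (-0.80 ± 0.09), the compact myelin protein Pmp22 (-0.69 ± 0.12) and the protease Klk6 (-1.10 ± 0.19), and the gene that was higher was Arhgef10 (0.52 ± 0.10). Of 26 further precursor genes 5 were lower, among them Smoc1 (-0.44 ± 0.08), Tcf7l2 (-1.07 ± 0.21), which is also known from the thalamus, and Rlbp1 (-0.77 ± 0.16), with a list median of 0.02. Of 29 genes of sterol and fatty acid synthesis 3 were lower, Pmvk (-0.31 ± 0.07), Fdft1 (-0.21 ± 0.06) and Elovl1 (-0.44 ± 0.13), with a median of -0.17. Of 13 axon and node of Ranvier genes 6 were lower, with a median of -0.26, and the smallest p-values belonged to the neurofilament genes Nefh (-0.60 ± 0.10) and Nefm (-0.62 ± 0.13) and the sodium channel gene Scn8a (-0.48 ± 0.10).

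Markers of other cells and regions were counted in the same way, where 7.42% of all genes were called in either direction. Of 13 neuronal markers 1 was higher and 2 were lower, of 12 astrocyte markers 1 was higher, of 11 microglial markers 1 was higher and 2 were lower, and of 11 vessel markers 1 was higher. Of 12 cortex markers 1 was higher and 3 were lower, 1 of 9 striatum markers and 1 of 10 pituitary markers were higher, and 0 of 11 choroid plexus markers passed. The cortex mean ran from 6.54 to 6.78 in 6-week BPH/2J and from 6.78 to 6.92 in 6-week BPN/3J. Of 11 hypothalamic markers 6 were higher, with a median of 0.70. The part of these lists in the myelin gene differences was not tested.

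In adult mice the strain difference was not detected. At 26 weeks 0 of the 31 genes passed, where 2.67% of all genes did (1.32% higher, 1.34% lower), and differences ran from -0.23 to 0.25 with a median of -0.04. At an unadjusted p below 0.05, 2 genes were higher and 0 lower, and 12.5% of all genes passed in either direction. All alternative fits run with limma, which included leaving out each array in turn and leaving out the 4 arrays that stood apart, also gave 0. Without those 4 arrays the median was 0.03, and the mature-gene median was 0.06, against -0.05 with them. Opalin had 7.20 to 8.05 (median 7.73) in BPH/2J, against 7.07 to 7.95 (median 7.76) in BPN/3J. Trf had 10.95 to 11.49 (median 11.17) in BPH/2J, against 11.13 to 11.82 (median 11.38) in BPN/3J. The groups overlapped almost wholly in Opalin, and the difference of Trf was -0.23 ± 0.13 (adjusted p = 0.496).

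The 2 genes below the unadjusted threshold were Nkx6-2 and Tspan2. Nkx6-2 ran from 7.91 to 8.06 (median 7.98) in BPH/2J, against 7.53 to 7.90 (median 7.76) in BPN/3J. It was the only gene of the set whose arrays did not overlap at this age, and 0.863% of all genes were higher and 0.883% lower without overlap. Its difference was 0.25 ± 0.09 (adjusted p = 0.152). Tspan2, a tetraspanin of the myelin membrane, had 10.95 to 11.34 (median 11.13) in BPH/2J, against 10.70 to 11.10 (median 10.89) in BPN/3J, a difference of 0.24 ± 0.10 (adjusted p = 0.286). Among the further oligodendrocyte, precursor and lipid synthesis lists, Arhgef10 (0.71 ± 0.10) was higher in BPH/2J. Ninj2 (-0.52 ± 0.09), the precursor genes Tmem100 (-0.51 ± 0.12) and Smoc1 (-0.32 ± 0.08), and the desaturase Scd1 (-0.36 ± 0.08) were lower. Of the thalamus markers 1 was lower (Tnnt1, -0.97 ± 0.14), and the list mean was 9.43 ± 0.12 in BPH/2J, against 9.44 ± 0.27 in BPN/3J. Of 11 hypothalamic markers 1 was higher, with a list mean of 8.16 ± 0.28 in BPH/2J, against 7.67 ± 0.36 in BPN/3J. Of 11 microglial markers 1 was higher and 1 lower, and of 11 vessel markers 1 was higher. In the neuronal, astrocyte, cortex, striatum, choroid plexus and pituitary lists 0 passed. At this age 2.67% of all genes were called. The part of these lists was not tested.

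**Figure D3:**
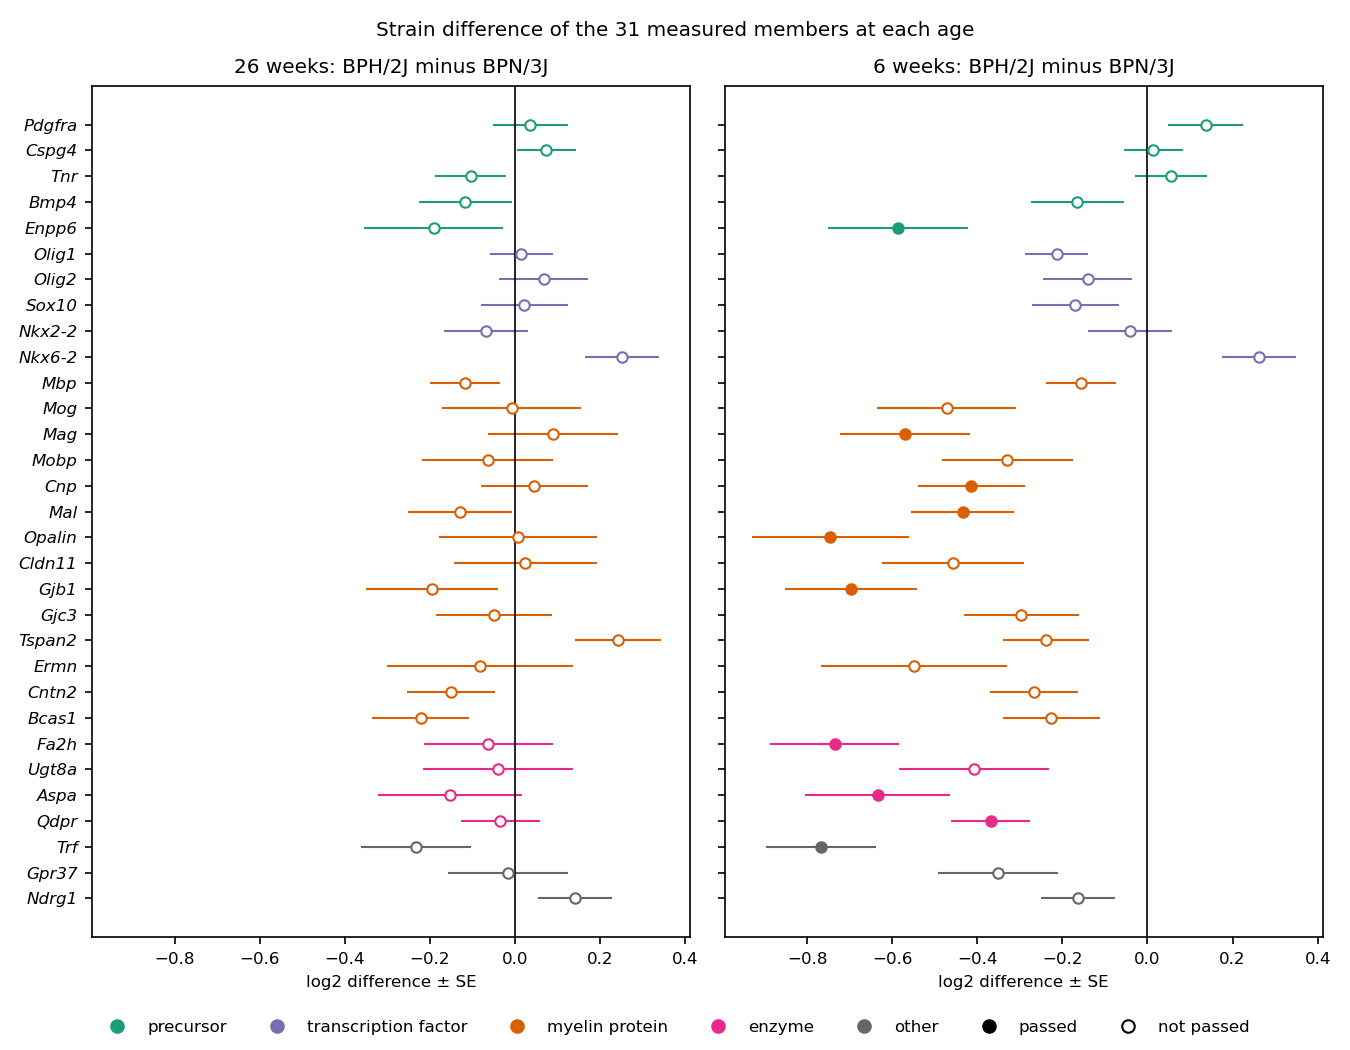
Strain difference (BPH/2J minus BPN/3J, log2, horizontal axis, bars are standard errors) of the 31 genes at 26 weeks and at 6 weeks, coloured by role, with filled points past the adjusted threshold. All 21 mature genes lie left of 0 at 6 weeks and around 0 at 26 weeks, where no point is filled.

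Whether the strain difference itself changed with age was tested as an interaction, the difference at 26 weeks minus that at 6 weeks. None of the 31 genes passed, and 6 of all 19937 genes did (0.0301%). At an unadjusted p below 0.05, 10 genes of the set were positive and 0 negative, where 10.8% of all genes passed in either direction. The values ran from -0.16 to 0.75, with a median of 0.31 over the set and 0.46 over the mature genes. The furthest positive were Opalin (0.75 ± 0.26, adjusted p = 0.225), Fa2h (0.67 ± 0.21, adjusted p = 0.177) and Mag (0.66 ± 0.22, adjusted p = 0.194), and Tspan2 (0.48 ± 0.14) had the lowest adjusted p of the set at 0.146. Without 6-week BPH/2J replicate 2, Mag (0.76, adjusted p = 0.0466), Tspan2 (0.57, adjusted p = 0.0136) and Fa2h (0.77, adjusted p = 0.0388) passed, as did 496 of all genes. Without the 4 arrays that stood apart 0 of the 31 genes and 19 of all genes passed, with a median of 0.42 over the set. The thalamus markers had a median interaction of 0.90 with 0 of 18 called. The call at 6 weeks and its absence at 26 weeks are therefore not shown to differ.

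Age was compared within each strain. The 2 age comparisons share the 4 groups with the strain comparisons, so the values are given side by side without a test between them. In BPN/3J mice 12 of the 31 genes were lower at 26 than at 6 weeks and 0 were higher, where 12.3% of all genes were called, 7.66% lower and 4.6% higher. The 12 genes were Cldn11, Mal, Tspan2, Enpp6, Mog, Cnp, Fa2h, Mag, Olig1, Qdpr, Trf and Bmp4. The median difference was -0.29 over the set and -0.39 over the mature genes, beside -0.03 over all genes, and 29 of 31 values were negative.

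Cldn11, the tight junction protein that seals the layers of myelin, had the largest fall. In BPN/3J it ran from 9.15 to 10.24 (median 9.41) at 26 weeks, against 10.17 to 10.87 (median 10.64) at 6 weeks. The sole overlap was 26-week replicate 5 with 6-week replicate 2. The difference was -1.08 ± 0.17 (adjusted p = 0.0010). Mal had 9.90 to 10.31 (median 10.02) at 26 weeks, against 10.53 to 11.15 (median 10.91) at 6 weeks, and Tspan2 had 10.70 to 11.10 (median 10.89), against 11.43 to 11.85 (median 11.70). In both genes all 26-week arrays lay below all 6-week arrays. This also held for Olig1, a helix-loop-helix factor of the lineage, and for 3.32% of all genes. Mal fell by 0.78 ± 0.12, Tspan2 by 0.77 ± 0.10 and Olig1 by 0.45 ± 0.07.

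Enpp6 had 6.10 to 7.12 (median 6.74) in 26-week BPN/3J, against 6.89 to 7.58 (median 7.43) at 6 weeks, a difference of -0.68 ± 0.16. Mog had 9.68 to 10.56 (median 10.01) at 26 weeks, against 10.19 to 10.99 (median 10.88) at 6 weeks, a difference of -0.65 ± 0.16. Cnp had 10.94 to 11.89 (median 11.37) at 26 weeks, against 11.80 to 12.20 (median 12.04) at 6 weeks, a difference of -0.64 ± 0.13. In each of these 3 genes the ranges of the ages overlapped. The remaining differences were -0.59 ± 0.15 for Fa2h, -0.48 ± 0.15 for Mag, -0.39 ± 0.09 for Qdpr, -0.39 ± 0.13 for Trf and -0.38 ± 0.11 for Bmp4. Mbp (-0.08 ± 0.08) did not pass in this or any other comparison.

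In BPN/3J, 9 to 15 genes of the set were called over the fits that left out an array, where 1034 to 4230 of all 19937 genes were. Of the 12 calls, 9 held in every one of these fits. Bmp4 was lost without 26-week BPN/3J replicate 1 or 6-week BPN/3J replicate 1 or 5. Mag was lost without 26-week BPN/3J replicate 1, 2, 4 or 6 or 6-week BPN/3J replicate 1, 3, 4, 5 or 6 (values of -0.57 to -0.42 over all fits, highest adjusted p = 0.100). Trf, at an adjusted p of 0.0488, was lost in 17 of the 24 fits (values -0.47 to -0.34, highest adjusted p = 0.121), and it passed without 26-week BPH/2J replicate 3, 5 or 6, 26-week BPN/3J replicate 5, 6-week BPH/2J replicate 2 or 5, or 6-week BPN/3J replicate 2. With replicate number as a block, Mag and Trf did not pass and Cntn2 did, and Trf did not pass after cyclic loess scaling. Without the 4 arrays that stood apart 14 genes were called lower and 0 higher, and 33.6% of all genes were called in either direction.

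In BPH/2J mice 7 of the 31 genes passed, 5 lower and 2 higher at 26 weeks, where 16.9% of all genes were called, 8.64% lower and 8.23% higher. The set's share of called genes lies near that of all genes, and the median difference of the set was -0.06, beside -0.03 over all genes. Cldn11 had 9.19 to 10.03 (median 9.51) at 26 weeks, against 9.84 to 10.59 (median 10.05) at 6 weeks. Only 26-week replicate 6 reached into the 6-week range. The difference was -0.60 ± 0.17 (adjusted p = 0.0158). Mal had 9.80 to 10.21 (median 9.92) at 26 weeks, against 10.08 to 10.88 (median 10.37) at 6 weeks, and fell by 0.47 ± 0.12 (adjusted p = 0.0097).

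The other 3 genes that fell in BPH/2J were a precursor gene pair and a factor. Bmp4 had 5.84 to 6.28 (median 5.96) at 26 weeks, against 5.91 to 6.62 (median 6.42) at 6 weeks. Tnr, a matrix protein that precursors and maturing oligodendrocytes make, had 8.52 to 8.95 (median 8.64) at 26 weeks, against 8.70 to 9.25 (median 9.02) at 6 weeks. Both pairs of ranges overlapped. Bmp4 fell by 0.34 ± 0.11 (adjusted p = 0.0357), Tnr by 0.33 ± 0.08 (adjusted p = 0.0100) and Olig1 by 0.22 ± 0.07 (adjusted p = 0.0418).

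Ermn and Aspa were higher in adult than in young BPH/2J mice. Ermn, which is associated with the actin skeleton of late-stage oligodendrocytes, had 9.19 to 10.70 (median 10.21) at 26 weeks, against 9.06 to 10.002 (median 9.38) at 6 weeks. Its 2 lowest 26-week values came from replicates 5 and 6, and the other 4 lay above all 6-week arrays. The difference was 0.63 ± 0.22 (adjusted p = 0.0471), and it was 0.98 ± 0.17 (adjusted p = 0.0001) without the 4 arrays that stood apart. Aspa had 8.21 to 9.14 (median 8.64) at 26 weeks, against 7.75 to 8.65 (median 8.06) at 6 weeks, with a wide overlap. Aspa rose by 0.55 ± 0.17 (adjusted p = 0.0280). In BPN/3J mice the same 2 genes had age differences of 0.17 ± 0.22 and 0.07 ± 0.17 and were not called. The thalamus markers were higher in 26-week than in 6-week BPH/2J mice in 15 of 18 genes, with a median of 0.88, against 0 called of 18 in BPN/3J, and the part of these markers in the age differences was not tested.

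Markers of other cells and regions were also counted with age, where 16.9% of all genes were called in BPH/2J and 12.3% in BPN/3J. Several of the counts below lie near those shares. In BPH/2J mice 6 of 11 hypothalamic markers were lower at 26 weeks (median -0.49), 3 of 12 astrocyte markers were lower, and 3 of 12 cortex markers were higher and 1 lower. Of the microglial markers 2 of 11 were higher, of the striatum markers 2 of 9 were higher and 1 lower, of the neuronal markers 1 was higher and 1 lower, and 1 choroid plexus and 1 vessel marker were higher and 1 pituitary marker lower. In BPN/3J mice 3 of 12 astrocyte markers, 2 of 13 neuronal markers, 1 hypothalamic and 1 cortex marker were lower, and 1 choroid plexus and 1 vessel marker were higher. Their part in the myelin gene differences was not tested.

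In BPH/2J, 3 to 8 genes of the set were called over the fits that left out an array, where 2138 to 4838 of all 19937 genes were. Mal, Cldn11 and Tnr passed in all of these fits. The set's count was 3 without 6-week replicate 6, and 4 without 26-week replicate 1, 2, 3 or 4 or 6-week replicate 1 or 3 of this strain. In the fits with these lower counts 10.7% to 13% of all genes were called. Bmp4 and Olig1 were lost without 26-week replicate 1 or 2 or 6-week replicate 1, 2, 3 or 6, Bmp4 also without 26-week replicate 4 and Olig1 also without 26-week replicate 3 (highest adjusted p = 0.0934 and 0.101). Aspa was lost without 26-week replicate 3 or 4 or 6-week replicate 3, 4, 5 or 6 (lowest value 0.46, highest adjusted p = 0.0838). Ermn was lost in 15 of the 24 fits (values 0.51 to 0.81, highest adjusted p = 0.140) and passed without 26-week BPH/2J replicate 5 or 6, 26-week BPN/3J replicate 2, 3, 4, 5 or 6, or replicate 2 of either 6-week group. No gene of the set was called with the thalamus mean as a covariate, where 9 of all genes were. When only the 12 BPH/2J arrays were fitted 3 of the set were called, where 12.5% of all genes were. Ermn also did not pass under a trended and robust prior, Bmp4 after cyclic loess scaling, and Olig1 after median centring or with replicate number as a block. Without the 4 arrays that stood apart 12 were called, 4 higher and 8 lower, where 39.3% of all genes were called, and the mature-gene median was 0.18, against 0.01 with them.

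**Figure D4:**
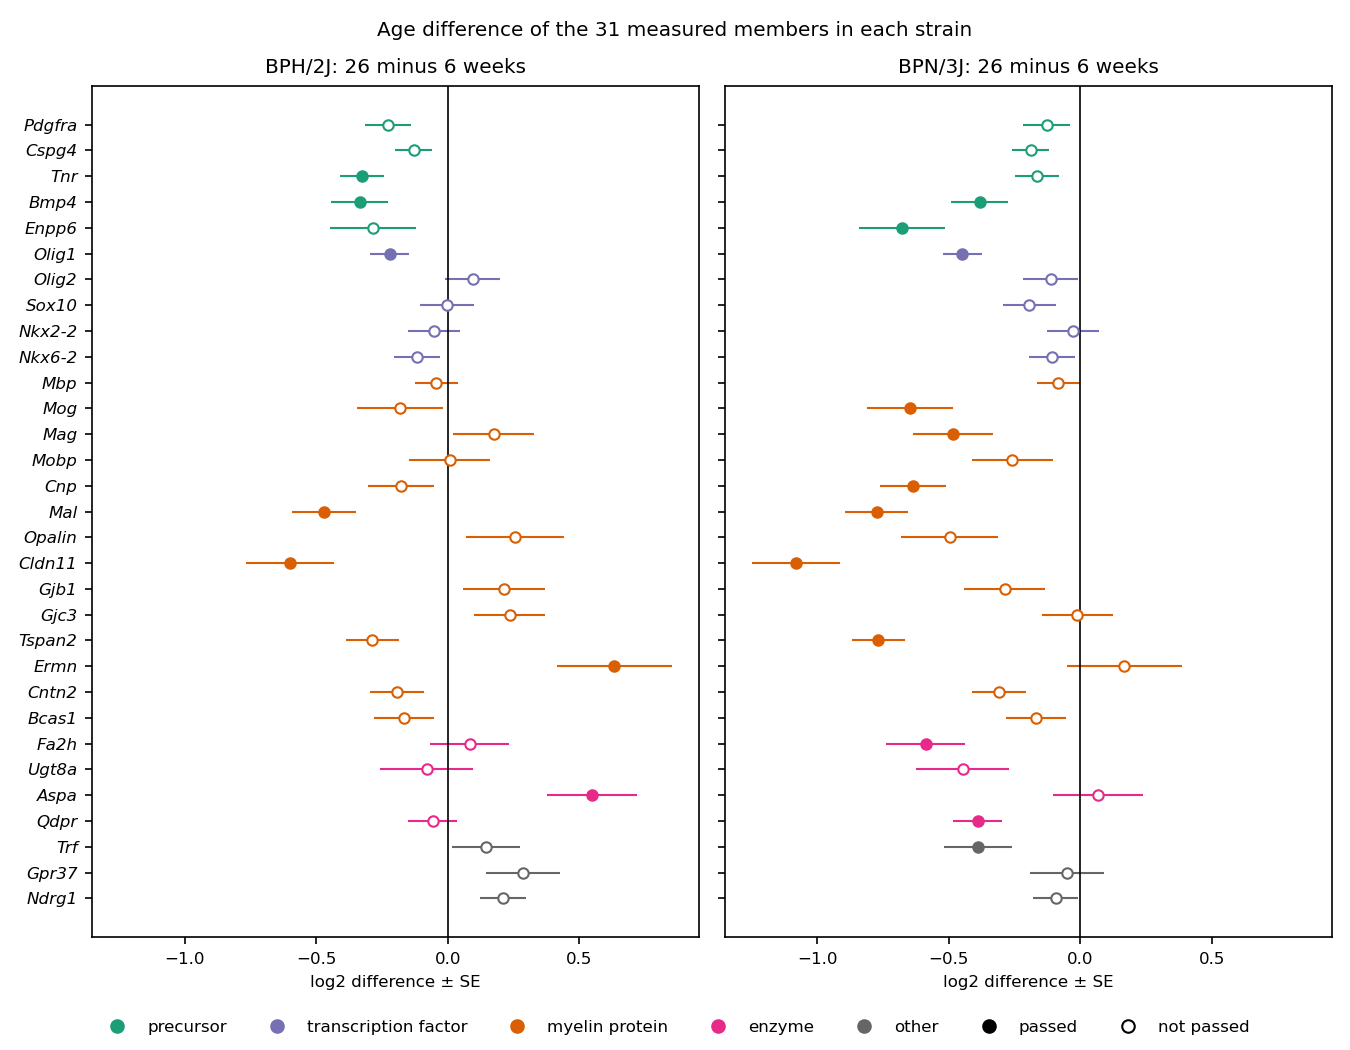
Age difference (26 minus 6 weeks, log2, horizontal axis, bars are standard errors) of the 31 genes in BPH/2J and in BPN/3J mice, coloured by role, with filled points past the adjusted threshold. Cldn11 and Mal are filled left of 0 in both strains, and Ermn and Aspa are filled right of 0 in BPH/2J.

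The 5 precursor genes all had negative age differences in both strains, of which Tnr and Bmp4 passed in BPH/2J and Enpp6 and Bmp4 in BPN/3J. Their mean was 7.32 ± 0.09 in BPH/2J and 7.38 ± 0.11 in BPN/3J at 26 weeks, against 7.58 ± 0.15 and 7.69 ± 0.08 at 6 weeks. Pdgfra, at -0.23 ± 0.09 in BPH/2J and -0.13 ± 0.09 in BPN/3J, and Cspg4, at -0.13 ± 0.07 and -0.19 ± 0.07, did not pass. Of the 26 further precursor genes 4 rose and 4 fell with age in BPH/2J, where 8.23% of all genes rose and 8.64% fell. In BPN/3J 3 rose and 6 fell, where 4.6% of all genes rose and 7.66% fell. The smallest p among them belonged to Gpr17, at -1.01 ± 0.09 in BPH/2J and -1.02 ± 0.09 in BPN/3J (adjusted p = 2.9e-07 in both). Neu4 was called lower in BPN/3J only (-0.37 ± 0.09, adjusted p = 0.0097).

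Of the 52 further oligodendrocyte genes 9 rose and 4 fell with age in BPH/2J, and 1 rose and 14 fell in BPN/3J (medians 0.07 and -0.21). Of the 29 sterol and fatty acid genes 2 rose and 6 fell in BPH/2J, and 0 rose and 14 fell in BPN/3J (medians -0.13 and -0.22). Of the 13 axon and node genes 2 rose in BPH/2J and 1 fell in BPN/3J. Of all genes, 8.23% rose and 8.64% fell in BPH/2J, and 4.6% rose and 7.66% fell in BPN/3J. Whether the counts of these lists differ between the strains was not tested.

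The 4 arrays that stood apart at 26 weeks split single genes of the set. Ermn averaged 9.38 on BPH/2J replicates 5 and 6 against 10.42 on the other 4, and 9.72 against 10.37 in BPN/3J. Pdgfra and Nkx2-2 were also below the other arrays of their group in both strains, and Cspg4 and Cntn2, a contactin of the membrane beside the node, were above them. Of all genes, 11.3% were below and 7.61% above in both strains. Bcas1, a gene of early myelinating cells, went opposite ways, at 7.65 against 8.13 in BPH/2J and 8.38 against 8.10 in BPN/3J. Over the set, 16 genes had both arrays outside the range of the other 4 in BPH/2J and 8 in BPN/3J, where 46.8% and 28.7% of all genes did, so the set's counts lie near those of all genes. All 10, 7 and 12 calls of the 6-week strain comparison and of the BPH/2J and BPN/3J age comparisons were kept without the 4 arrays, and also with a term for them. With that term, Ermn was called higher in 26-week BPN/3J as well (0.45 ± 0.16, adjusted p = 0.0359).

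**Figure D5:**
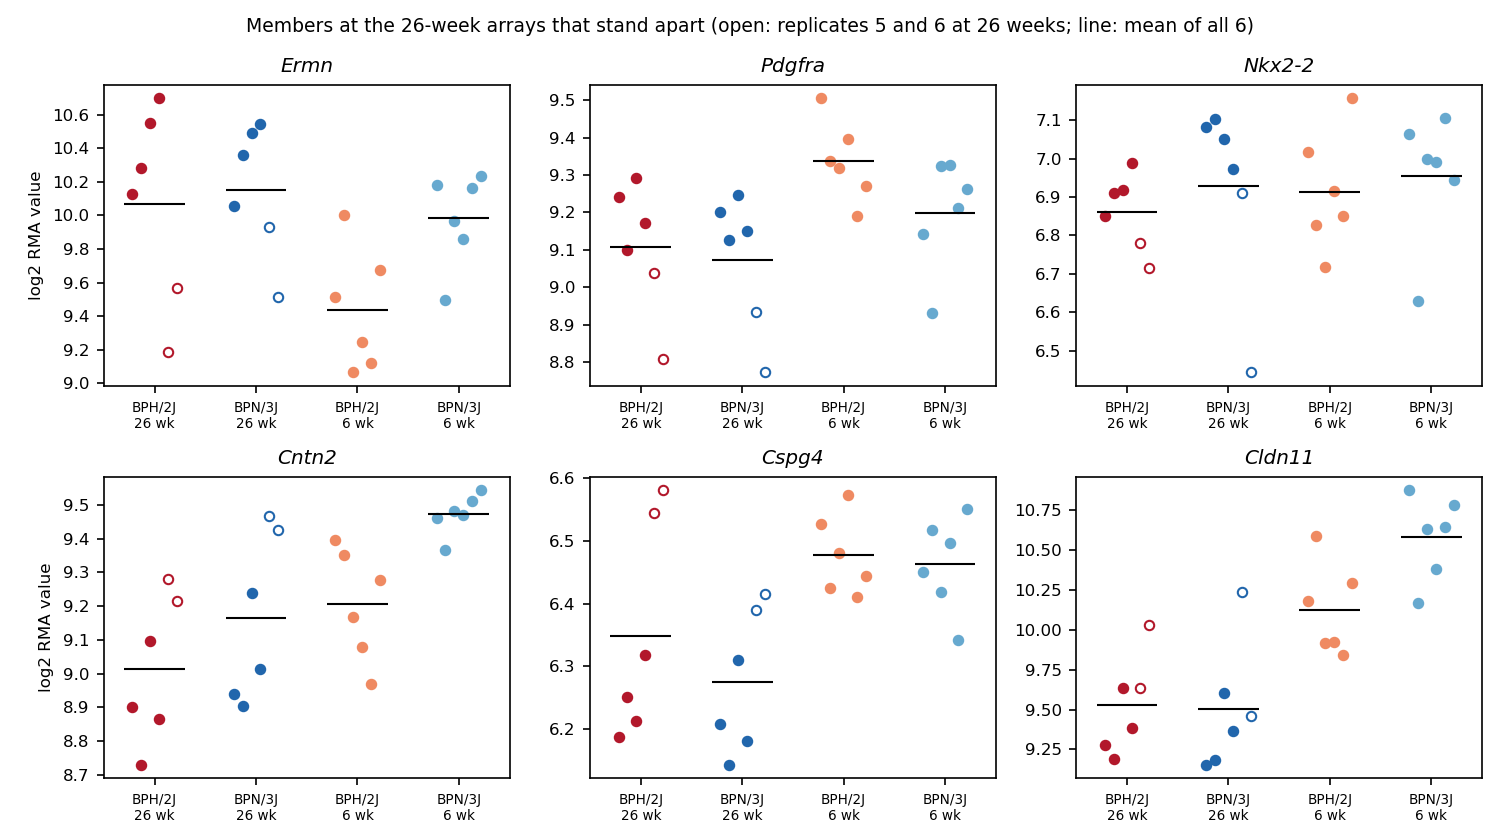
Log2 RMA value (vertical axis) of Ermn, Pdgfra, Nkx2-2, Cntn2, Cspg4 and Cldn11 on every array, with open circles for 26-week replicates 5 and 6 and a line at the mean of all 6 arrays of a group. The open circles lie below the filled ones of their group for Ermn, Pdgfra and Nkx2-2 and above them for Cntn2 and Cspg4.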

How the data were processed

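Per the submitters' processing notes, the deposited log2 values were made with RMA, and limma is named there. RMA subtracts background, makes the array distributions equal and summarises each probe set, so these values cannot show a change common to every gene of an array. For versions, array annotation and genome build, the entry is not given in the sources used here. In all, the table held 34760 probe sets on 24 arrays with 0 missing values, of which 21640 had 1 gene symbol in the platform annotation, 1321 several and 11799 none. A gene was read from its brightest single-symbol probe set, by the mean of the 24 arrays. Titles of the samples gave the groups and replicate numbers. In the design text the normotensive strain is once BPN/2J, and the BPN/3J of the sample labels was kept.

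limma 3.58.1 in R 4.3.3 fitted 1 mean per group to all 24 arrays (20 residual degrees of freedom), with 5 contrasts and Benjamini-Hochberg adjustment over 19937 genes within each, at a threshold of 0.05. The fit was tested on simulated data with independent noise for each gene and no shift shared by the genes of an array. The simulation therefore cannot show how the fit behaves with arrays that stand apart. All members were described by role, with group ranges for those past the threshold in a strain contrast and for the 6 largest called differences in each age contrast, and up to 3 called genes of the myelin-related and thalamus lists were named. Members and lists were chosen with earlier results of these data known. Alternatives were other probe set rules, a filter on dim genes, scalings, priors, array weights, a block, a covariate and each array left out. Those for the 4 arrays that stood apart were chosen after seeing the data.

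Arrays were checked for duplicates (mean absolute difference of 0.178 or more within a group). Same-numbered arrays were checked for pairing by correlating how they deviated from group means, which was 0.13 to 0.44 between strains at 26 weeks, -0.23 to 0.05 between strains at 6 weeks, 0.01 to 0.41 between ages in BPH/2J and -0.10 to 0.05 in BPN/3J. Every pair was above 0.1 at 26 weeks only. Replicates 5 and 6 stood apart there in both strains, and such a shared split can by itself raise same-number correlations. The sample titles name no pairs. The correlations therefore cannot decide whether the numbers pair the arrays at 26 weeks.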

Additional observations from a re-analysis of the deposited data

Results flagged for a closer look

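Each group of 6 arrays was tested for the 31 genes and for the means of the mature genes, precursor genes, transcription factors and thalamus markers. Of these 140 groups, 12 held an array whose gap to its nearest neighbour exceeded Dixon's critical share of the group's range. Chance gives about 1 in 20. Of the 12, 8 belonged to 6-week BPN/3J replicate 2, which was low for Nkx2-2 (6.63), Mog (10.19), Opalin (7.55), Gjb1 (7.22), Aspa (8.18), Qdpr (11.60) and Gpr37 (9.97) and in the mean of the precursor genes (7.54). The same array was lowest in 19 of the 21 mature genes. In the same group replicate 1 was low for Tnr (8.73). At 26 weeks BPN/3J replicate 5 was high for Olig1 (9.56) and replicate 6 low for Nkx2-2 (6.44), both among the 4 arrays that stood apart, and BPH/2J replicate 4 was high in the mean of the transcription factors (7.99). Genes of a cell type share arrays, so these 12 are not independent of each other.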

How the results depend on the processing

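No member changed the sign of a called difference in any fit. The count of genes called at 6 weeks was 10, and it was 21 with array weights (20 lower and 1 higher, with 3725 of all genes called). It was 1 with the thalamus mean as a covariate, where 0.818% of all genes were called. With an array left out it was 5 to 15, where 1034 to 1961 of all genes were called. At 26 weeks it was 0 throughout, also with an array left out (0 to 0). The interaction gave 0, but 7 with array weights (683 of all genes) and 0 to 3 with an array left out (0 to 496 of all genes). Age in BPH/2J gave 7, but 3 with only the groups compared, 0 with the covariate and 3 to 8 with an array left out. In these fits 2502, 9 and 2138 to 4838 of all genes were called. Age in BPH/2J also gave 13 with array weights, 12 without the 4 arrays that stood apart and 11 with a term for them. The share of all genes called rose in the same fits, from 16.9% to 37.5%, 39.3% and 37.5%. Age in BPN/3J gave 12, and 9 to 15 with an array left out (1034 to 4230 of all genes). The causes of these changes were not tested. Dropping arrays or groups leaves fewer arrays in the fit, but some counts rose without them. For single called members, 93 results of fits without 1 array no longer passed and 603 still did, and under the other settings 31 and 315.

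With replicate number as a block, the counts were 9 for strain at 6 weeks, 0 at 26 weeks, 0 for the interaction, 7 for age in BPH/2J and 11 for age in BPN/3J. Of all genes 7.8%, 2.76%, 0.135%, 19.5% and 15.4% were called, in that order. Whether the numbers pair the arrays at 26 weeks was not decided, and the block changed no call at that age. Under the block Cnp was lost in the strain comparison at 6 weeks, and in the age comparison of BPH/2J Olig1 was lost and Pdgfra gained. In the 6-week comparison 0 of 6 arrays correlated best with their own number, at 26 weeks 3 did.

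RMA values carry no measure of signal over background per gene, and the bulk tissue, 6 mice per group and 4 arrays that stood apart limit what can be seen at 26 weeks.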
